A study of Mus musculus with 3 samples.

Results

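The E2F family of transcription factors, E2f1 to E2f8, was followed across the cell classes of the dorsal pallial midline of mouse embryos, the tissue that holds the cortical hem, a source of Cajal-Retzius neurons, and the adjoining choroid plexus. The 8 genes were found by Ensembl ID among the 27040 features that all 3 libraries shared, and all 8 were present. The Gmnc-/- sample, a single library, pooled 4 embryos of stage E12.5 without Gmnc, a coiled-coil protein of the Geminin family that starts the multiciliation programme. The wild type was a single cell suspension that pooled 4 PGKCre;Rosa26YFP embryos at E11.5 with 4 Wnt3aCre;Rosa26tdTomato embryos at E12.5, and 2 libraries were drawn from it. PGKCre is driven by a ubiquitous promoter and Wnt3aCre by a gene of the cortical hem, so the YFP and tdTomato reporters mark stage and lineage together. All embryos were C57BL/6J by their labels. About 20000 cells were loaded per library on a droplet 3′ platform, for a target of 10000.

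Each genotype was thus 1 sample, and the wild-type libraries were technical repeats. No test between genotypes was possible, and stage, reporters, dissection and processing cannot be told apart from genotype. The intervals below are exact 95% intervals that cover counting error only.

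E2F proteins bind GC-rich elements in the promoters of genes for DNA replication and cell division. E2f1, E2f2 and E2f3 activate such genes once Cyclin-dependent kinases release them from the retinoblastoma protein Rb1, while E2f4 and E2f5 act mostly as repressors with the pocket proteins Rbl1 and Rbl2, and all of them need a DP partner (Tfdp1 or Tfdp2) to bind DNA. E2f6 lacks the pocket protein domain and works with a Polycomb complex, and the atypical members E2f7 and E2f8 bind DNA without a DP partner and repress E2F targets. In multiciliated cells E2f4 and E2f5 join with the Geminin relatives Gmnc and Mcidas to switch on genes for centriole amplification. E2f7 is also known as a target of p53 in human cell lines.

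Promoter sequences from RefSeq are shown for E2f7, the member whose level differed most between cell classes and genotypes, and for E2f2 and E2f8, whose levels followed the cell cycle in both genotypes. Each is the 250 bases before the annotated start on the gene's own strand in GRCm38.p6. Windows of 6 of the 8 members were found. Capitals mark matches, on either strand, to the E2F elements TTTGGCGC, TTTCCCGC, TTTCGCGC and TTTGCCGC, to CCAAT, and to TTTGAA, the core of the cell cycle homology region bound by the MuvB complex.
E2f7, chr10:110745189-110745438, plus strand: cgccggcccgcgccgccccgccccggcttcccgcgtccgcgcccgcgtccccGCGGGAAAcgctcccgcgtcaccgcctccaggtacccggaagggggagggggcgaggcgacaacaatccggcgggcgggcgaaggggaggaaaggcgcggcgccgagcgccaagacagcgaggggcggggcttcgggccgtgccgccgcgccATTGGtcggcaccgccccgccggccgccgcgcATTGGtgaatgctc
E2f2, first of 2 RefSeq starts, chr4:136172024-136172273, plus strand: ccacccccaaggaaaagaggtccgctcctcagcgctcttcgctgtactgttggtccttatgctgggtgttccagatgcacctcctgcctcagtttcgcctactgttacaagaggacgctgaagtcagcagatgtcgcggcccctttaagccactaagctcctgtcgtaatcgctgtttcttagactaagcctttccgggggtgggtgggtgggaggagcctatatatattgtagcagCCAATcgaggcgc
E2f8, chr7:48881597-48881846, minus strand: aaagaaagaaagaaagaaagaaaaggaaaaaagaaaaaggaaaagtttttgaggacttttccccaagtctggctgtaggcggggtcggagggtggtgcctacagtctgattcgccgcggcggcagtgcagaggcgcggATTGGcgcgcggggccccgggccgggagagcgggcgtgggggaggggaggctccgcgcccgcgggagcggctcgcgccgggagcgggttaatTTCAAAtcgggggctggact

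The E2f7 window held TTTCCCGC on the opposite strand, 198 to 191 bases before the start, and CCAAT on the opposite strand at 46 to 42 and at 14 to 10 bases. TTTCCCGC was found in 0.895% of 32851 windows of this length, while TTTGGCGC, TTTCGCGC and TTTGCCGC were found in 0.417%, 0.256% and 0.338%. Among the members E2f3, which is not printed, had a match to TTTCCCGC as well, and also to CCAAT and TTTGAA. The E2f2 window shown held CCAAT 13 to 9 bases before the start, and the window of its second start, which is not printed, held CCAAT at 174 to 170, 133 to 129 and 53 to 49 bases and TTTGAA at 31 to 26 bases. The E2f8 window held CCAAT at 112 to 108 bases and TTTGAA at 20 to 15 bases, both on the opposite strand. CCAAT stood in 33.8% and TTTGAA in 15.99% of all windows, so these matches are common. A match is a stretch of letters and was not tested as a binding site.

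The libraries held 259403297 UMIs in Gmnc-/- and 148073906 and 139978761 UMIs in the wild type, and 12884, 8527 and 7479 cells with a median of 8677, 11613 and 12838 UMIs were used. The wild-type libraries had 1914 barcodes in common, 15.4% and 18.4% of their barcodes, and the smaller copy had a median of 2.33% of the UMIs of the larger. The knockout library shared 78 and 42 barcodes with them. Without the barcodes shared by the wild-type libraries, E2f7 stood at 149 CPM (UMIs of the gene per 1000000 UMIs of the class) in wild-type Cajal-Retzius-like neurons, against 150 CPM with them. Haemoglobin genes, a measure of free RNA in cells that do not make them, summed to 1838 CPM in cycling Gmnc-/- progenitors against 253 and 214 CPM in wild-type ones, to 2628 CPM against 314 and 284 CPM in intermediate progenitor-like cells, to 3136 CPM against 350 and 476 CPM in neurons and to 5113 CPM against 268 and 239 CPM in choroid plexus-like cells. The part of free RNA in the E2F levels was not tested. The knockout was counted over 32285 features and the wild type over 28001, and the version of Cell Ranger in the file headers differed too.

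Cells were clustered without any E2F gene, and clusters were named from marker genes. Progenitors comprised hem progenitor-like cells (1856 in Gmnc-/-, 1618 and 1440 in the wild-type libraries), in which 8 of 8 hem markers such as Wnt3a were at least 2-fold over the rest, and neural progenitor-like cells (5579, 3243 and 2756). The markers of the larger progenitor class, among them Sox2 and Pax6, stood out over neurons but not over all other cells. Intermediate progenitor-like cells numbered 1071, 650 and 592, Cajal-Retzius-like neurons 876, 722 and 650, and choroid plexus-like cells 1611, 1280 and 1105. A class of other neurons, led by Robo3 and Neurod2, had 139 and 137 wild-type cells and 0 knockout cells. Knockout and wild-type Cajal-Retzius-like neurons lay mostly in different sub-clusters: 395, 272 and 197 knockout neurons made up nearly all of sub-clusters 0, 1 and 6, while wild-type neurons filled sub-clusters 3, 4, 5, 7, 8 and 9. The small sub-cluster 10 held 7 knockout neurons and 21 and 17 wild-type ones. Progenitor cluster 5, led by histone genes, held 1746 knockout cells and 33 and 32 wild-type cells. Other progenitor clusters were split by genotype too: cluster 3 held 242 knockout cells and 1029 and 847 wild-type cells, cluster 19 held 281 knockout cells and 2 and 0 wild-type cells, and clusters 21 and 24 held 251 and 116 knockout cells and 0 wild-type cells. Clusters 8 (1058 knockout cells, 148 and 140 wild-type cells), 14 (163 knockout cells, 428 and 353 wild-type cells) and 20 (213 knockout cells, 3 and 35 wild-type cells) stayed unnamed and entered no class.

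Progenitors were placed in an S range, a G2/M range or a low range by their UMIs from lists of S and of G2/M genes that contain no E2F gene, after thinning each cell to 4000 UMIs, which 7240 of 7435 progenitors in Gmnc-/- and 4838 of 4861 and 4152 of 4196 in the wild type reached. The S range held 52.0% of scored progenitors in Gmnc-/- against 61.4% and 60.3% in the wild type, the G2/M range 33.7% against 31.1% and 32.0%, and the low range 14.3% against 7.52% and 7.66%. These are ranges of a score, and 27.7% of knockout and 22.8% and 22.4% of wild-type progenitors lay within 2 UMIs of a boundary. The boundaries, 9 UMIs for S genes and 22 for G2/M genes, were the 95th percentiles of wild-type neurons. The same neurons are later compared with progenitors. Cells in the S and G2/M ranges are called cycling progenitors below. The UMIs of all cells in a class were added up within a library and divided by their total to give CPM. In erythroid cells the erythroid markers, mostly globin genes, summed to 610032 CPM in Gmnc-/- and 655931 and 669277 CPM in the wild type. This lowers the CPM and the thinned shares of all other genes there, so erythroid levels are not on the scale of other classes. A difference was called when it was at least 2-fold in the same direction in, or against, each wild-type library, with Poisson intervals that did not overlap, provided that the higher level rested on 50 UMIs or more and reached 5 CPM. Between classes of Gmnc-/- a call had to pass in its single library only, whereas in the wild type it had to pass in both libraries. Counts of calls within the genotypes thus follow unlike rules.

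Between cycling progenitors and neurons, 7 of the 8 members were called higher in progenitors of the knockout, the exception being E2f6, where 17.4% of all genes tested were called higher. In the wild type 4 members (E2f2, E2f3, E2f5 and E2f8) were called higher in cycling progenitors, against 13.7% of genes, and 1 member, E2f7, was called lower, against 16.4% of genes. The median log2 ratio of the 8 members was 1.96 in Gmnc-/- and 1.29 in the wild type, beside 0.11 and −0.08 over all genes tested. Set against Cajal-Retzius-like neurons alone, the wild type had 5 members called higher in progenitors (13.2% of genes), with E2f1 added, and again E2f7 lower (16.9% of genes). When likely doublets were kept, 4 members were called higher in knockout progenitors than in neurons, and 1 member instead of 7 was called lower in knockout Cajal-Retzius-like neurons than in cycling progenitors. Keeping doublets also moved the boundaries that define cycling progenitors.

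**Figure D1:**
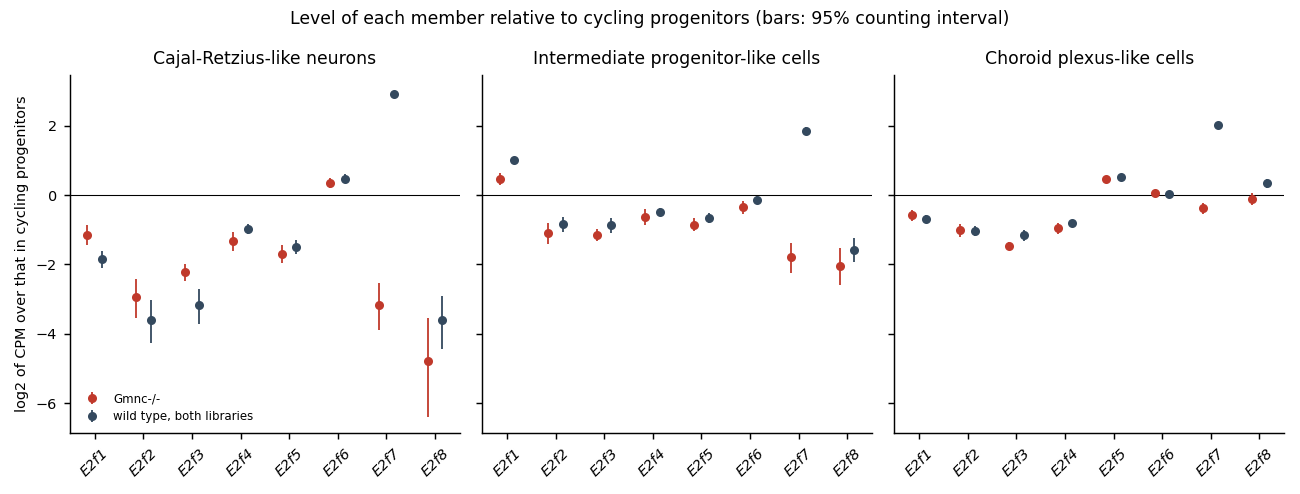
Points show the log2 ratio (vertical axis) of each E2F member's CPM in Cajal-Retzius-like neurons, intermediate progenitor-like cells and choroid plexus-like cells (panels) over that in cycling progenitors, red for Gmnc-/- and dark blue for both wild-type libraries pooled, with exact 95% intervals on the counts. E2f7 lies below 0 in Gmnc-/- and above 0 in the wild type in each panel, with ratios of 0.111 and 7.57 in Cajal-Retzius-like neurons.

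Among the activators, E2f1 followed S phase. It stood at 37.9 CPM in the S range of Gmnc-/- progenitors, against 55.7 and 55.4 CPM in the wild-type libraries. In the G2/M range it was at 12.4 CPM in Gmnc-/- and at 13.2 and 14.5 CPM in the wild type, and in the low range at 9.91 CPM and at 11.3 and 8.995 CPM. The S range was therefore the high one in all 3 libraries, 3.82-fold over the low range in Gmnc-/- (3.11 to 4.75) and 5.47-fold in the wild type (4.33 to 7.01). Outside the progenitors E2f1 was highest in intermediate progenitor-like cells, at 38.2 CPM in Gmnc-/- against 82.4 and 77.2 CPM in the wild type, a called difference with a ratio of 0.478 (0.419 to 0.544). Cajal-Retzius-like neurons had 12.4 CPM in Gmnc-/- and 10.9 and 11.2 CPM in the wild type. Erythroid cells, whose levels are lowered by globin UMIs, had 12.1, 18.6 and 8.46 CPM. The other neurons, found in the wild type, stood apart with 58.1 and 55.6 CPM. With all neurons as a single class, E2f1 was lower in Gmnc-/- in all 7 separate classes. The ratio ran from 0.373 in mesenchyme to 0.900 in erythroid cells, although in Cajal-Retzius-like neurons alone E2f1 was not lower.

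E2f2 had the same order of phases. Its level in the S range was 32.2 CPM in Gmnc-/- and 29.8 and 31.1 CPM in the wild type, in the G2/M range 15.01 CPM against 10.6 and 11.3 CPM, and in the low range 6.43 CPM against 2.82 and 5.51 CPM. Genotypes differed little here: the ratio of Gmnc-/- to wild type in cycling progenitors was 1.09 (1.04 to 1.15). In Cajal-Retzius-like neurons it had 3.25 CPM in Gmnc-/- and 1.49 and 2.30 CPM in the wild type, so that cycling progenitors were 7.73-fold higher in Gmnc-/- (5.30 to 11.7) and 12.2-fold higher in the wild type (8.09 to 19.2). Erythroid cells, which at this stage divide in the blood, had 19.7 CPM in Gmnc-/- and 29.9 and 30.4 CPM in the wild type, and in the wild type they were above cycling progenitors with intervals that did not overlap.

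E2f3 was called higher in both the S and the G2/M range than in the low range in Gmnc-/-. In the wild type, where both libraries had to pass, it was called in neither. In the S range it had 85.3 CPM in Gmnc-/- and 26.6 and 28.6 CPM in the wild type, in the G2/M range 75.2 CPM against 21.3 and 22.7 CPM, and in the low range 31.4 CPM against 13.6 and 13.1 CPM. Cajal-Retzius-like neurons had 17.3 CPM in Gmnc-/- and 3.63 and 1.97 CPM in the wild type, the low end of its range together with erythroid cells. The level in Gmnc-/- was above both wild-type libraries in each class, 3.19-fold in cycling progenitors (3.07 to 3.32), 6.19-fold in Cajal-Retzius-like neurons (4.24 to 9.28) and 2.60-fold in choroid plexus-like cells (2.29 to 2.95). It was also above 2-fold in the classes outside the neural lineage, at 12.1 CPM in knockout erythroid cells against 1.28 and 2.51 CPM in wild-type ones, counts too low for a call. Over 7 separate classes, with all neurons as a single class, the ratio ranged from 2.49 to 6.38, although within choroid plexus-like cluster 4 it was 1.58 (1.27 to 1.97).

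In phase comparisons of the whole family, 5 members (E2f1, E2f2, E2f3, E2f7 and E2f8) were called higher in the S than in the low range in Gmnc-/-, against 4.72% of genes, and 4 (the same without E2f3) in the wild type, against 4.76% of genes. For the G2/M over the low range the counts were 4 in Gmnc-/- (E2f2, E2f3, E2f7 and E2f8; 4.88% of genes) and 2 in the wild type (E2f2 and E2f8; 4.74% of genes). No member was called lower in the G2/M range, where 2.87% of genes were in Gmnc-/- and 1.44% in the wild type. Between the S and the G2/M range, E2f1 and E2f2 were called higher in S in Gmnc-/-, 2 members where 0.445% of genes were called. In the wild type 3 members were called, E2f1, E2f2 and E2f7, where 0.682% of genes were, and 0 lower, where 1.48% were.

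**Figure D2:**
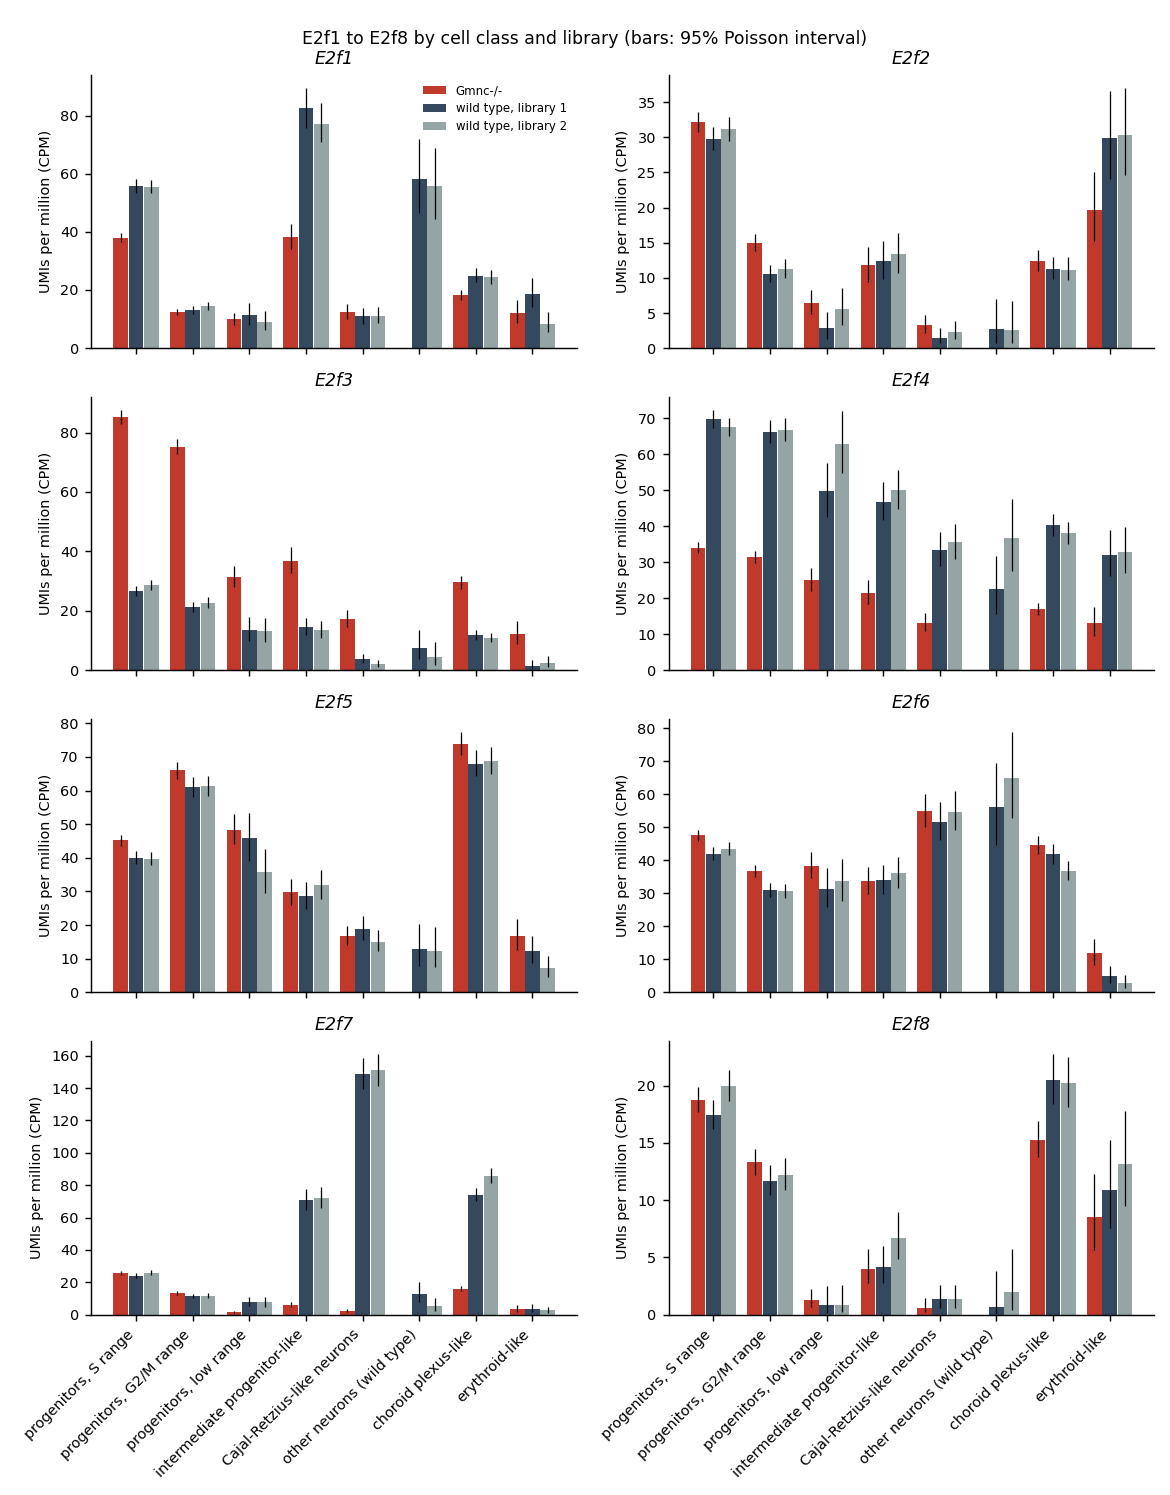
Bars show the level of each E2F member in CPM (vertical axis, from 0, with its own scale in each panel) by cell class, red for the Gmnc-/- library and dark blue and grey for the wild-type libraries, and thin lines are exact 95% Poisson intervals. E2f1, E2f2, E2f7 and E2f8 are higher in the S range than in the low range in each library, and E2f7 in Cajal-Retzius-like neurons is at 2.29 CPM in Gmnc-/- and at 149 and 151 CPM in the wild type.

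Of the repressors, E2f4 was called in none of the phase comparisons. In the S range it had 34.0 CPM in Gmnc-/- against 69.9 and 67.6 CPM in the wild type, in the G2/M range 31.4 CPM against 66.3 and 66.8 CPM, and in the low range 25.1 CPM against 49.7 and 62.97 CPM. Cajal-Retzius-like neurons had 13.1 CPM in Gmnc-/- and 33.5 and 35.5 CPM in the wild type. Cycling progenitors were thus 2.51-fold above them in Gmnc-/- (2.07 to 3.07) and 1.97-fold in the wild type (1.78 to 2.17), called in the first case alone. The knockout library was below both wild-type libraries in every class, with a ratio of 0.485 in cycling progenitors (0.466 to 0.505), 0.380 in Cajal-Retzius-like neurons (0.305 to 0.471), 0.432 in choroid plexus-like cells (0.385 to 0.483) and 0.401 in erythroid cells (0.282 to 0.560). Over the 7 separate classes the ratio ran from 0.391 to 0.601.

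E2f3 and E2f4 therefore differed between the genotypes in the same direction in neural cells, blood and mesenchyme. The DP partner Tfdp1 did so as well, with 62.3 CPM in cycling Gmnc-/- progenitors against 4.99 and 4.44 CPM in wild-type ones (13.2-fold, 12.2 to 14.3) and 14.6 CPM in knockout erythroid cells against 0.64 and 0.63 CPM in wild-type ones. Among replication genes the sliding clamp gene Pcna had 231 CPM in cycling Gmnc-/- progenitors and 76.0 and 78.0 CPM in wild-type ones. For differences of this kind genotype, feature set and software version cannot be told apart. The same limit holds for E2f1, which was lower in Gmnc-/- in all 7 separate classes. Erythroid cells were also split by genotype. Cluster 17, led by Hbb-bh1 and Hba-x, held 2 knockout cells and 188 and 168 wild-type cells. Cluster 22, led by Hbb-bs and Hba-a2, held 200 knockout cells and 2 and 3 wild-type cells. The part of this split in the erythroid ratios was not tested.

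E2f5 was the member with its highest level in the choroid plexus in all 3 libraries. Choroid plexus-like cells had 73.9 CPM in Gmnc-/- and 68.0 and 68.9 CPM in the wild type, above cycling progenitors with 53.7 CPM in Gmnc-/- and 48.0 and 47.9 CPM in the wild type. That difference, 1.38-fold in Gmnc-/- (1.30 to 1.45) and 1.43-fold in the wild type (1.36 to 1.496), did not reach the 2-fold of a call. Unlike E2f1 and E2f2 it was higher in the G2/M range (65.96 CPM in Gmnc-/-, 60.9 and 61.2 CPM in the wild type) than in the S range (45.2 CPM in Gmnc-/-, 40.1 and 39.8 CPM in the wild type). In Cajal-Retzius-like neurons it stood at 16.6 CPM in Gmnc-/- and at 19.0 and 15.1 CPM in the wild type, and cycling progenitors were called higher in both genotypes. In Gmnc-/- over wild type it was between 0.975 and 1.12 in cycling progenitors, intermediate progenitor-like cells, Cajal-Retzius-like neurons and choroid plexus-like cells.

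E2f6 was higher in Cajal-Retzius-like neurons than in cycling progenitors in both genotypes, though by less than 2-fold. Cajal-Retzius-like neurons had 54.9 CPM in Gmnc-/- and 51.7 and 54.7 CPM in the wild type, and the other neurons 56.0 and 64.8 CPM. Cycling progenitors had 43.1 CPM in Gmnc-/- and 37.8 and 38.6 CPM in the wild type, a ratio of neurons to progenitors of 1.28 in Gmnc-/- (1.16 to 1.40) and 1.39 in the wild type (1.28 to 1.51), which was not called. Erythroid cells had the lowest CPM, which globin UMIs lower, with 11.8 CPM in Gmnc-/- and 4.81 and 2.82 CPM in the wild type. The ratio of Gmnc-/- to wild type was 1.03 in Cajal-Retzius-like neurons (0.913 to 1.17).

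The atypical member E2f8 behaved like a cycle gene in both genotypes. It had 18.8 CPM in the S range of Gmnc-/- progenitors against 17.5 and 19.98 CPM in the wild type, and 13.3 CPM in the G2/M range against 11.7 and 12.2 CPM. In the low range 12 UMIs in Gmnc-/- gave 1.27 CPM, and 3 UMIs in each wild-type library gave 0.85 and 0.87 CPM. Neurons were near 0 as well, with 5 UMIs in Gmnc-/- Cajal-Retzius-like neurons (0.60 CPM) and 8 in each wild-type library (1.32 CPM in both). Choroid plexus-like cells had 15.3 CPM in Gmnc-/- and 20.5 and 20.3 CPM in the wild type, and those in the cycling range 21.8 CPM against 24.8 and 24.5 CPM.

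E2f7 was called higher in the S than in the low range of progenitors in both genotypes, and in the wild type its highest levels lay outside the progenitors. In cycling progenitors the genotypes were close, with 20.6 CPM in Gmnc-/- and 19.2 and 20.4 CPM in the wild type, a ratio of 1.04 (0.981 to 1.10). The S range had 25.6 CPM against 24.0 and 25.8 CPM, and the G2/M range 13.4 CPM against 11.47 and 11.6 CPM. The low range differed, with 13 UMIs or 1.37 CPM in Gmnc-/- against 27 and 26 UMIs, or 7.63 and 7.54 CPM, in the wild type, a called ratio of 0.181 (0.0904 to 0.336) where 1.03% of genes were called lower. E2f3 was the 1 member called higher there, against 4.35% of genes. In hem progenitor-like cells E2f7 had 15.2 CPM in Gmnc-/- and 23.3 and 24.0 CPM in the wild type, a ratio of 0.641 that was not called.

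In Cajal-Retzius-like neurons E2f7 had 19 UMIs, or 2.29 CPM, in Gmnc-/-, and 901 and 919 UMIs, or 149 and 151 CPM, in the wild type. The knockout was 65.5-fold lower (41.8 to 109). Erythroid cells, whose levels are lowered by globin UMIs, had 3.34 CPM of E2f7 in Gmnc-/- and 3.53 and 2.51 CPM in the wild type. The neurons compared differed in make-up. Neuron cluster 7 held 866 knockout cells and 251 and 233 wild-type cells, and neuron cluster 11 held 10 knockout cells and 610 and 554 wild-type cells. In cells thinned to 4000 UMIs, 0.584% of knockout neurons of this class had an E2f7 UMI (0.190% to 1.36%), against 36.2% and 34.9% of wild-type ones, with 20 knockout and 13 and 16 wild-type neurons too shallow to enter. Erythroid cells, which lie outside the neural lineage, had an E2f7 UMI in 0.474% in Gmnc-/- and 0.526% and 1.17% in the wild type, thinned alike, at median depths of 15244.5, 15650.5 and 17504 UMIs. Globin UMIs lower these erythroid shares as well. Unthinned, the shares in the neurons were 2.17% against 51.0% and 49.7%, at median depths of 7738 UMIs in Gmnc-/- and 7921 and 9119 UMIs in the wild type. When the barcodes removed as likely doublets were kept, the knockout level was 11.6 CPM. Of the 1099 knockout barcodes then in the class, 46.2% were such barcodes, against 10.2% and 9.98% in the wild type.

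Over all classes the wild type ranked E2f7 highest in Cajal-Retzius-like neurons, with an interval apart from that of every other class. Choroid plexus-like and intermediate progenitor-like cells followed, at 79.8 CPM (76.8 to 82.9) and 71.6 CPM (67.1 to 76.3) over both libraries, but their intervals overlapped in library 1, and without the ciliary cluster 16 described below choroid plexus-like cells were at 56.3 CPM, so these classes have no fixed order. Mesenchyme (14.5 and 29.3 CPM in the wild type) and cycling progenitors came next and their intervals overlapped. In Gmnc-/- cycling progenitors led, and their interval overlapped that of mesenchyme with 17.5 CPM. Cajal-Retzius-like neurons, the top class of the wild type, were the lowest of the knockout, with an interval that overlapped that of erythroid cells. The other neurons of the wild type were low, with 13.0 and 5.24 CPM.

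**Figure D3:**
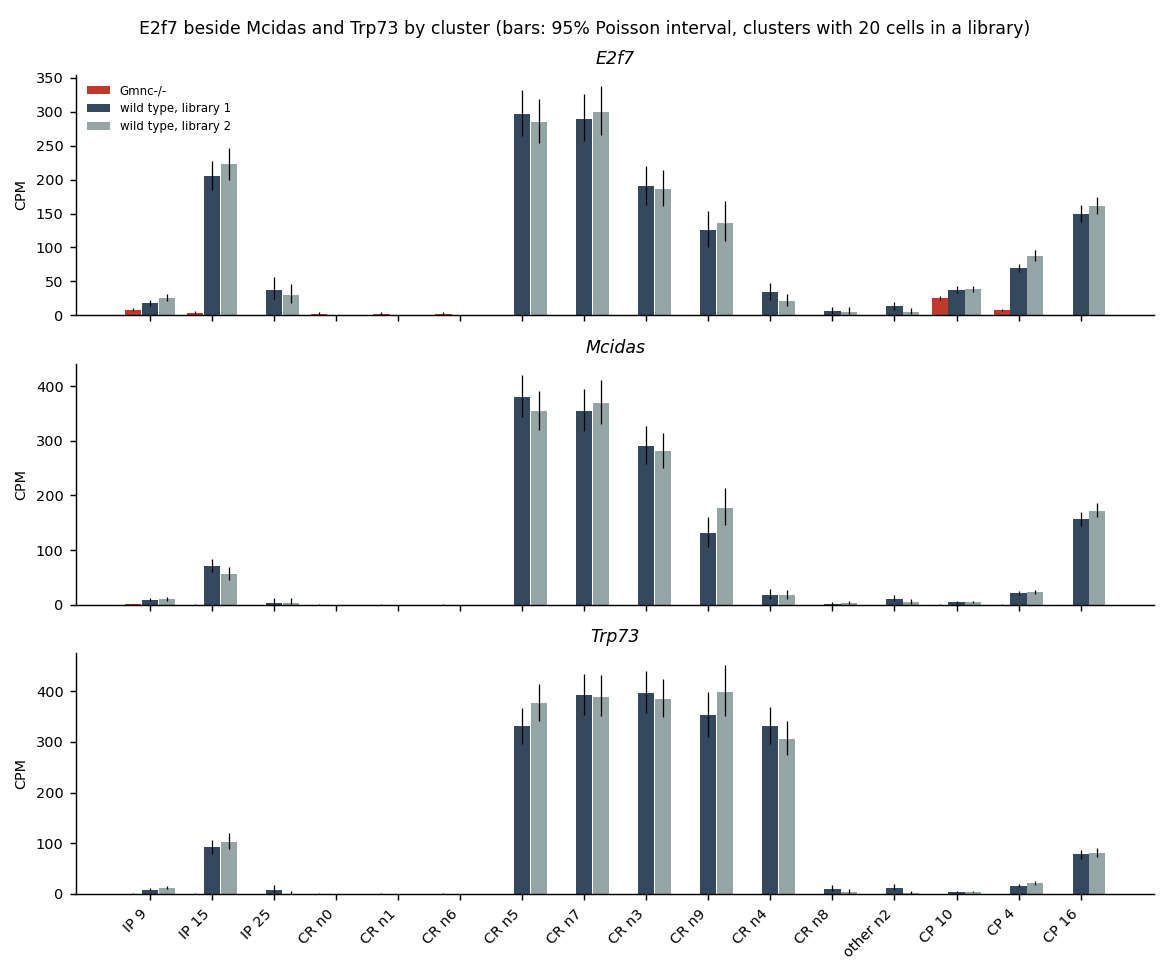
Bars show E2f7, Mcidas and Trp73 (panels from top to bottom) in CPM in each intermediate progenitor-like cluster (IP), Cajal-Retzius-like (CR) or other neuron sub-cluster and choroid plexus-like cluster (CP), red for Gmnc-/- and dark blue and grey for the wild-type libraries, with exact 95% Poisson intervals and only where a library had at least 20 cells. Sub-cluster 10 is not drawn, although wild-type library 1 had 21 cells in it. E2f7 lies between 1.83 and 2.61 CPM in knockout sub-clusters 0, 1 and 6, and between 5.17 and 301 CPM in the wild-type Cajal-Retzius-like sub-clusters shown.

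Within the wild-type neurons E2f7 varied by sub-cluster. It was highest in sub-cluster 5 (297 and 285 CPM) and sub-cluster 7 (290 and 301 CPM), followed by sub-cluster 3 (190 and 187 CPM) and sub-cluster 9 (125 and 136 CPM). It was low in sub-cluster 4 (33.7 and 21.0 CPM) and in sub-cluster 8 (6.25 and 5.17 CPM). Mcidas, the Geminin relative that acts after Gmnc, had 380 and 354 CPM in sub-cluster 5 and 18.4 and 17.2 CPM in sub-cluster 4. Trp73, which encodes the p53 relative p73, still had 331 and 306 CPM in sub-cluster 4 and was at 9.82 and 3.101 CPM in sub-cluster 8. Levels of E2f7 and Mcidas were thus both low in sub-cluster 4, where Trp73 was not. The knockout sub-clusters 0, 1 and 6 had 2.09, 2.61 and 1.83 CPM of E2f7. Wild-type sub-cluster 8, where E2f7 was low too, shared the leading genes Cnr1, Stmn2 and Calb2 with each of them. The part of this difference in make-up in the E2f7 ratio of the whole class was not tested.

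Detection in the same cells was then compared between E2f7 and other genes. In the wild type, 41.1% and 38.7% of neurons with a UMI of Cdkn1a, the cell cycle inhibitor p21, also had an E2f7 UMI at 4000 UMIs, against 5.67% and 6.28% of neurons without one. In the knockout 0 of 36 neurons with a Cdkn1a UMI had an E2f7 UMI, which allows a share of up to 9.74% by the exact interval, and 0.610% of those without did. For Trp73 the wild-type shares were 41.2% and 41.0% with a UMI and 18.8% and 16.2% without. These shares pooled the Cajal-Retzius-like and the other neurons, whose sub-clusters differed in E2f7. Cdkn1a was among the leading genes of the sub-clusters with the most E2f7. It was also among those of the sub-cluster with 33.7 and 21.0 CPM of E2f7. The part of sub-cluster make-up in these shares was not tested.

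Intermediate progenitor-like cells, the Eomes and Neurog1 cells between progenitors and neurons, had 5.95 CPM of E2f7 in Gmnc-/- and 71.0 and 72.2 CPM in the wild type, 12.0-fold lower in the knockout. The difference lay mostly in cluster 15, which is led by Gmnc, Uncx and Neurog1, with 2.98 CPM in Gmnc-/- against 206 and 223 CPM in the wild type. In cluster 9, led by Sstr2 and with Eomes among its leading genes, E2f7 had 8.04 CPM in Gmnc-/- against 17.9 and 26.04 CPM in the wild type. Wild-type cells of the class with a Trp73 UMI had an E2f7 UMI in 61.2% and 66.7% of cases, those without in 12.4% and 12.6%. Relative to cycling progenitors of the same genotype, 4 members (E2f2, E2f3, E2f7 and E2f8) were called lower in Gmnc-/- intermediate progenitor-like cells, against 11.1% of genes, and 0 higher, against 7.13%. In the wild type E2f8 was called lower (1 member; 7.53% of genes) and E2f7 higher (1 member; 6.4% of genes).

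Choroid plexus-like cells had 15.8 CPM of E2f7 in Gmnc-/- and 74.1 and 85.8 CPM in the wild type, 5.04-fold lower in the knockout. The cells in the low range of the cycle scores differed most, with 2.58 CPM in Gmnc-/- against 95.4 and 112 CPM in the wild type (40.03-fold lower; 4.88% of genes were called lower there), while those in the cycling range had 22.4 CPM against 68.1 and 78.6 CPM (3.27-fold lower; 2.98% of genes). In the knockout E2f7 in this class was thus higher in cycling than in low-range cells, 8.68-fold (5.48 to 14.6), and in the wild type the ratio was 0.709 (0.652 to 0.772). The wild-type class included cluster 16, led by Dynlrb2, Rsph1 and other genes of motile cilia, with 306 and 291 wild-type cells and 1 knockout cell, and E2f7 stood there at 150 and 162 CPM. Without that cluster the wild type was at 56.3 CPM. Cluster 4, led by Ttr, had 8.04 CPM in Gmnc-/- against 69.6 and 87.6 CPM in the wild type, and cluster 10, led by Msx1, Ednrb and Sulf1, 25.5 CPM against 37.7 and 38.3 CPM.

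Summed over the 10 choroid plexus markers the class had 36576 CPM in Gmnc-/- and 16451 and 17953 CPM in the wild type, and the part of this difference in the E2f7 levels was not tested. In the wild type 52.2% and 53.6% of choroid plexus-like cells with a Trp73 UMI had an E2f7 UMI, and 18.6% and 22.1% of those without. Compared with cycling progenitors, no member was called higher in the choroid plexus of Gmnc-/-, where 14.1% of genes were, and 2 (E2f2 and E2f3) were called lower, where 6.19% of genes were. In the wild type 1 member, E2f7, was called higher (13.1% of genes) and 1, E2f3, lower (5.3% of genes). Between cycling and low-range choroid plexus-like cells, 5 members were called higher in Gmnc-/- (5.91% of genes) and 3, E2f1, E2f2 and E2f8, in the wild type (2.96% of genes). None was called lower in either genotype, as were 2.3% of genes in Gmnc-/- and 0.0797% in the wild type.

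A tdTomato UMI was found in 16.2% and 14.9% of wild-type Cajal-Retzius-like neurons, in 11.8% and 14.7% of microglia (4 and 5 of 34 cells in each library), which do not descend from the cortical hem, and in 2.63% and 5.85% of erythroid cells, at median depths of 7921 and 9119, 14439.5 and 14375, and 15650.5 and 17504 UMIs. Of the neurons with a tdTomato UMI, 13.7% and 17.5% also had a YFP UMI. A reporter UMI therefore does not settle the stage of a cell, and the values that follow are given by UMI alone. Wild-type neurons with a tdTomato and no YFP UMI had 144 and 160 CPM of E2f7 and those with a YFP and no tdTomato UMI 128 and 123 CPM. In intermediate progenitor-like cells the values were 85.4 and 112 CPM with tdTomato and 74.5 and 71.4 CPM with YFP. With the wild-type cells that had a tdTomato UMI as the wild type, the log2 ratio of Gmnc-/- to wild type was −6.20 in Cajal-Retzius-like neurons, −4.09 in intermediate progenitor-like and −2.26 in choroid plexus-like cells.

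Set side by side over classes, the comparison of Gmnc-/- with the wild type called 2 members in cycling progenitors, E2f3 higher (1 member; 4.53% of genes) and E2f4 lower (1 member; 0.992% of genes). In intermediate progenitor-like cells E2f3 was called higher (4.41% of genes) and 3 members, E2f1, E2f4 and E2f7, lower (2.44% of genes). In Cajal-Retzius-like neurons 6 members had counts high enough to be tested, of which E2f3 was called higher (5.56% of genes) and E2f4 and E2f7 lower (11.0% of genes). In choroid plexus-like cells the calls were the same, E2f3 higher (5.75% of genes) and E2f4 and E2f7 lower (3.13% of genes). With all neurons as a single class, E2f3 was again called higher (5.04% of genes) and E2f4 and E2f7 lower (9.22% of genes). Outside the neural lineage E2f4 was called lower in erythroid cells (5.61% of genes), and no member was called higher there, where 25.1% of genes were. In mesenchyme E2f3 was called higher (3.17% of genes) and E2f1 and E2f4 lower (2.04% of genes). E2f5 and E2f6 were called in none of these classes. With only cells with a tdTomato UMI as the wild type, the number called lower was 0 instead of 1 in cycling progenitors and 1 instead of 2 in Cajal-Retzius-like neurons, and the number called higher in choroid plexus-like cells was 0 instead of 1. The wild-type libraries were close to each other: for 28 of 32 pairs of member and class the interval of their ratio included 1, and the largest fold with at least 50 UMIs in each library was 1.22. With fewer UMIs E2f3 in neurons reached 1.76.

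**Figure D4:**
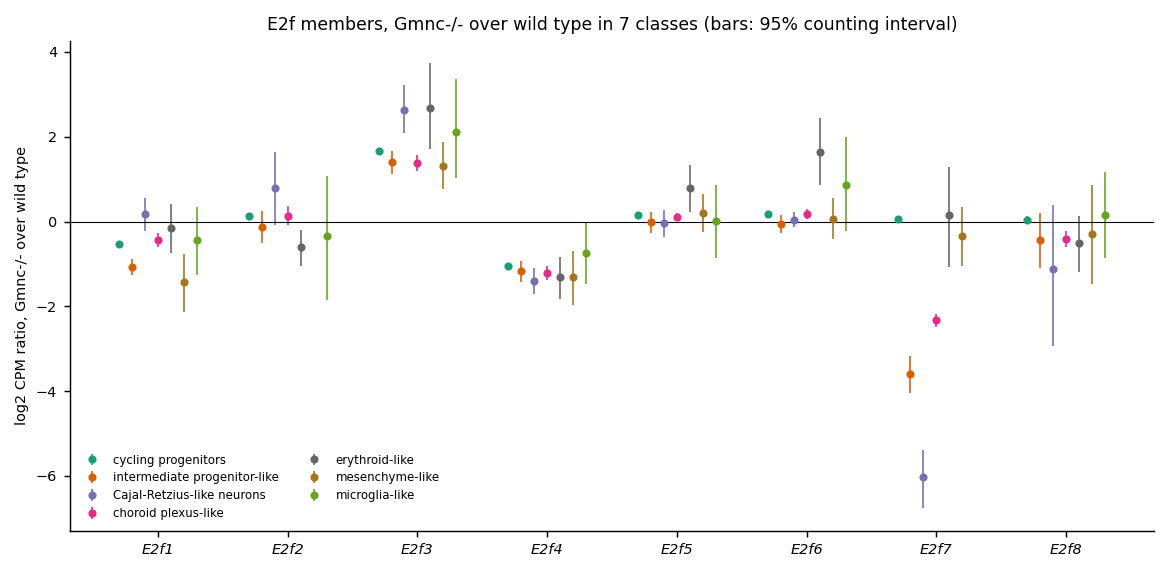
Points show the log2 ratio of CPM (vertical axis) in Gmnc-/- over the pooled wild type for each E2F member, coloured by 7 cell classes, with exact 95% intervals on the counts and only where the groups held at least 20 UMIs together. E2f3 lies above 0 and E2f4 below 0 in each class, erythroid cells included, whereas E2f7 is near 0 in cycling progenitors (ratio 1.04) and lowest in Cajal-Retzius-like neurons (ratio 0.0153).

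The partners of the family were read in the same way, against shares of all genes called higher of 4.53% in cycling progenitors, 4.41% in intermediate progenitor-like cells, 5.04% in neurons and 5.75% in choroid plexus-like cells, and called lower of 0.992%, 2.44%, 9.22% and 3.13%. Of the 5 DP and pocket protein genes, Tfdp1 was called higher in Gmnc-/- in cycling progenitors, intermediate progenitor-like cells, neurons and choroid plexus-like cells, and none was called lower. The median log2 ratio of the list was 0.66 in cycling progenitors, beside −0.04 over all genes tested. Rbl1, which pairs with E2f4, was higher in cycling progenitors than in neurons. It had 18.5 CPM in cycling progenitors of Gmnc-/- and 18.9 and 21.0 CPM in those of the wild type. In neurons it had 3.13 CPM in Gmnc-/- and 3.06 and 2.89 CPM in the wild type. Rb1 went the other way in the wild type, with 65.4 and 62.3 CPM in neurons and 15.2 and 15.9 CPM in cycling progenitors. In Gmnc-/- Rb1 had 45.2 CPM in neurons and 24.3 CPM in cycling progenitors.

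Gmnc itself, the deleted gene, was still counted in the knockout, with 39.7 CPM in Cajal-Retzius-like neurons against 166 and 156 CPM in the wild type and 178 CPM in choroid plexus-like cells against 64.8 and 69.5 CPM. The deleted part is not named in the sources used here, and a 3′ tag outside it checks nothing. Mcidas had 0 UMIs in knockout Cajal-Retzius-like neurons against 188 and 195 CPM in the wild type, at least 530-fold lower with a floor of 3 UMIs over the group. Of the 9 Geminin family and multiciliation genes, 8 were called lower in knockout neurons (median log2 ratio −5.75, beside −0.16 over all genes), among them Trp73 and Ccno, the cyclin O that acts in centriole amplification. In choroid plexus-like cells 7 were called lower and 1, Gmnc, higher, in intermediate progenitor-like cells 5 of 7 tested were called lower, and in cycling progenitors none of 4 tested was called. All 9 tested motile axoneme genes were called lower in knockout neurons and 8 of 11 in choroid plexus-like cells, none of 2 in cycling progenitors and none of 1 in intermediate progenitor-like cells.

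The next list holds E2F targets in replication, genes known to be bound or activated by the family. Some of them, Pcna and Mcm2 included, are also in the S phase list by which cycling progenitors were chosen, which limits what calls in those cells can show. In cycling progenitors 38 of 38 were tested, of which Pcna was called higher (4.53% of all genes) and Mcm2, a subunit of the replicative helicase, lower (0.992% of genes), at 67.2 CPM in Gmnc-/- against 146 and 143 CPM in the wild type. The median log2 ratio was −0.37. In intermediate progenitor-like cells 1 of 37 was called higher (4.41% of genes) and 2 lower (2.44% of genes), Mcm2 and the ribonucleotide reductase gene Rrm2 (85.1 CPM in Gmnc-/- against 202 and 223 CPM). In neurons 31 were tested, 1 was called higher (5.04% of genes) and 5 lower (9.22% of genes), with a median of 0.00. The lower ones included Cdt1, which licenses origins (4.82 CPM in Gmnc-/- against 19.7 and 18.3 CPM), and the chromatin assembly genes Chaf1a (9.39 CPM against 27.1 and 25.9 CPM) and Chaf1b (7.10 CPM against 18.6 and 22.1 CPM). In choroid plexus-like cells Pcna alone was called among 37 tested, as higher (5.75% of genes). When likely doublets were kept, 0 of these targets were called lower in neurons.

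None of the 52 G2 and M genes was called in cycling progenitors. Those cells were themselves chosen by their UMIs from this list or the S phase list, with the same boundaries in all libraries. Few calls from either list in cycling progenitors therefore do not show that the genotypes are alike. Called lower in the knockout were 14 of 47 tested in neurons (9.22% of all genes), 17 of 52 in intermediate progenitor-like cells (2.44% of genes) and 4 of 52 in choroid plexus-like cells (3.13% of genes). Cdk1, the mitotic kinase, had 11.2 CPM in knockout neurons and 141 and 132 CPM in wild-type ones. The median log2 ratio of this list in neurons was −0.61. Of the S phase scoring list, 1 gene was called higher and 5 lower of 34 tested in neurons (5.04% and 9.22% of all genes). The counts were 1 higher and 1 lower of 40 in cycling progenitors (4.53% and 0.992% of genes), 1 higher and 2 lower of 39 in intermediate progenitor-like cells (4.41% and 2.44%), and 1 higher and 0 lower of 40 in choroid plexus-like cells (5.75% and 3.13%). Dtl, a ubiquitin ligase subunit that targets Cdt1, had 5.30 CPM in knockout neurons against 24.6 and 23.5 CPM in wild-type ones.

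Upstream of Rb1, Ccne1, which encodes cyclin E1, was the 1 of 5 tested genes of its list called in neurons. It was lower (9.22% of all genes), at 5.78 CPM in Gmnc-/- against 17.2 and 19.97 CPM in the wild type. In cycling progenitors none of 8 was called, and in intermediate progenitor-like and choroid plexus-like cells 1 of 8 was called lower (2.44% and 3.13% of genes). Of the CDK inhibitors Cdkn1a had 15.2 CPM in knockout neurons and 1401 and 1368 CPM in wild-type ones, and Cdkn1c, which encodes p57, 121 CPM against 338 and 352 CPM. These 2 of 4 tested were called lower (9.22% of genes). The counts lower were 2 of 5 in intermediate progenitor-like cells (2.44%), 2 of 5 in choroid plexus-like cells (3.13%) and 0 of 5 in cycling progenitors (0.992%). In the MuvB list 2 of 5 tested were called lower in neurons (9.22% of genes) and none in the other 3 classes. They were Lin9 (11.8 CPM in Gmnc-/- against 23.7 and 24.6 CPM) and Lin54 (6.503 CPM against 19.5 and 16.3 CPM), core subunits of the complex. Among the 9 Polycomb partners of E2f6, Rybp was called higher in neurons, intermediate progenitor-like and choroid plexus-like cells (5.04%, 4.41% and 5.75% of genes). It had 50.2 CPM in Gmnc-/- neurons against 17.6 and 22.2 CPM in the wild type. None of the 9 was called in cycling progenitors. Of 13 germline genes that E2f6 keeps silent in mouse cells, 1 reached the minimum for testing in each of these 4 classes and was not called.

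Dissociation stress genes were called higher in Gmnc-/- for 3 of 7 tested in cycling progenitors (Atf3, Fosb and Egr1; 4.53% of all genes) and 2 of 7 in choroid plexus-like cells (5.75% of genes). In neurons and in intermediate progenitor-like cells 1 of 5 was called higher (5.04% and 4.41% of genes). Their part in the levels of the E2F members was not tested.

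Across the wild type, the genes whose levels ran most alike with a member were sought over 20 points, 10 classes and phase ranges in 2 libraries, among 9544 genes. For E2f7 they were Cenpj (r = 0.92), which acts in centriole assembly, Rab15 (0.91) and the keratin gene Krt8 (0.91). For E2f8 they were the condensin gene Ncapg2 (0.93), the histone chaperone Asf1b (0.92) and the cohesin acetyltransferase Esco2 (0.92). E2f3 was closest to Adk, Impdh2 and Prps1 (0.94 each), which act in purine metabolism, E2f4 to Gtf3a (0.91), E2f5 to Notch2, Itpr1 and Gabpb2 (0.95 each) and E2f6 to Taok2, Tbc1d7 and R3hdm4 (0.98 each). For E2f1 and E2f2 the best values were lower, 0.64 with Nrp1 and 0.80 with Tmem238. The points share libraries and classes, so these values describe likeness and carry no test.

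In GRCm38 the members lie on chromosomes 2 (E2f1), 4 (E2f2), 13 (E2f3), 8 (E2f4), 3 (E2f5), 12 (E2f6), 10 (E2f7) and 7 (E2f8), at for example chr10:110745439-110787384 for E2f7, and no member shares exon sequence with another gene on its own strand. On the opposite strand E2f7 overlaps 1700020G17Rik by 86 exon bases, E2f8 overlaps Gm2788 by 610 and E2f5 overlaps 1810022K09Rik by 26, and no source used here says whether the counting used strand. In Cajal-Retzius-like neurons 1700020G17Rik had 0 UMIs in Gmnc-/- and 1 and 0 UMIs in the wild type. The other 2 were counted. In choroid plexus-like cells 1810022K09Rik had 98.4 CPM in Gmnc-/- and 105 CPM in both wild-type libraries. Gm2788 had 3.16 CPM in Gmnc-/- and 2.49 and 2.84 CPM in the wild type there, and 2.04, 1.29 and 1.30 CPM in cycling progenitors. The part of these genes in the E2f5 and E2f8 counts was not tested.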

How the data were processed

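The files hold filtered droplet counts: per the file headers and labels, the authors deposited UMI counts per gene and barcode for the mm10 build, and the submitters' processing notes name Cell Ranger 3.1.0, while the knockout file header gives 6.0.0. Features were matched by Ensembl ID, and 27040 were kept in all 3 libraries (99.2% to 99.8% of UMIs). No per-sample column of another series was present (0).

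Cells had at least 1000 genes, at least 2000 UMIs and at most 10% mitochondrial UMIs. Doublets were scored against 2 simulated doublets per cell in 30 components, and the top 0.8% per 1000 barcodes was removed (2491 barcodes, 16.2%, in Gmnc-/-; 941 and 679, 9.94% and 8.32%, in the wild type). Counts were log-normalised to 10000, and 2000 variable genes were chosen after leaving out the E2F genes, the other lists and mitochondrial, ribosomal and haemoglobin genes. They were scaled in each genotype separately, with values limited to 10. The cells were clustered on 40 components (20 within neurons), 20 neighbours and Leiden resolution 1. Clusters took names from marker lists, with thresholds settled after the clusters were seen.

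Counts were summed per class and library, with CPM over the class total, exact Poisson intervals for levels, exact conditional intervals for ratios and Clopper-Pearson intervals for shares in cells thinned to 4000 UMIs. A group at 0 was set to a floor of 3 counts. These intervals leave out variation between embryos. The call rule was tested on simulated class sums. Named genes were all members, up to 4 called genes with the largest log2 ratio per list and class, and Gmnc, Tfdp1, Rb1, Rbl1 and Mcidas; cluster leaders, the genes set beside E2f7 by cluster or in the same cells, and the members of lists named outside this rule were chosen after their values were seen. The members and lists were chosen with earlier results of these data known. Promoters came from RefSeq. The analysis used Python 3.11.15, numpy 2.4.6, scipy 1.17.1, pandas 2.3.3, scikit-learn 1.9.0, leidenalg 0.10.2, matplotlib 3.10.9, R 4.3.3 and, for TMM and median-ratio scaling alone, edgeR 4.0.16.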

Additional observations from a re-analysis of the deposited data

Results flagged for a closer look

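The difference between cell classes went in opposite directions in the genotypes for E2f7, and with 1 sample per genotype that difference was not tested. E2f7 in Cajal-Retzius-like neurons over cycling progenitors had a ratio of 0.111 in Gmnc-/- and 7.57 in the wild type. In intermediate progenitor-like cells over cycling progenitors the ratio was 0.289 in Gmnc-/- and 3.61 in the wild type. In choroid plexus-like cells over cycling progenitors it was 0.770 in Gmnc-/- and 4.03 in the wild type. Within the choroid plexus-like class, cells in the cycling range over cells in the low range had a ratio of 8.68 in Gmnc-/- and 0.709 in the wild type. The knockout and wild-type cells of these classes lay partly in different clusters.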

How the results depend on the processing

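Of 620 values of the main results under alternatives, 566 stayed within the spread or within 1.5 times the count, 54 moved and 0 reversed. Among single members and genes, 1021 of 1173 stayed and 0 reversed. Only a ratio that was called in the main processing could count as reversed. The log2 ratio of Gmnc-/- to wild type for E2f7 in cycling progenitors, which was not called, changed sign and counted as moved. It was above 0 in the main processing, −0.11 with doublets kept and −0.14 with only wild-type cells that had a tdTomato UMI. The number of members called lower in the wild-type choroid plexus than in cycling progenitors, 1, became 2 at resolutions 0.6 and 1.6, with at least 4000 UMIs, with TMM or median-ratio scaling, with the phase boundary at the 99th percentile, and without shared barcodes, and lay between 1 and 2 when a wild-type library was left out. For E2f7 the log2 ratio of Cajal-Retzius-like neurons to cycling progenitors in the wild type, 2.92, was 2.54 at resolution 0.6, 2.81 at 1.6, 2.80 with doublets kept, 2.72 with at least 4000 UMIs, 2.70 with TMM and 2.74 with median-ratio scaling. E2f7 in these wild-type neurons was 115 CPM at resolution 0.6, 139 CPM at 1.6, 160 CPM with doublets kept and 132 CPM with at least 4000 UMIs, and the share with a UMI was 28.8% at resolution 0.6, 38.9% with doublets kept and 31.7% with at least 4000 UMIs. At resolution 0.6 wild-type choroid plexus-like cells had 92.3 CPM of E2f7 and a log2 ratio of Gmnc-/- to wild type of −2.54. Without a wild-type library the class had 74.1 to 85.8 CPM.

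Doublets kept had the widest effect. They also moved the phase boundaries, from 9 to 16 UMIs for S genes and from 22 to 32 for G2/M genes. The low range then held 25.7% of scored progenitors in Gmnc-/- and 16.7% and 17.5% in the wild type. Cycling progenitors in this setting are therefore not the same set of cells. In Gmnc-/- the members called higher in progenitors over neurons were 4 and those lower in Cajal-Retzius-like neurons 1, with an E2f7 log2 ratio of −0.87 over cycling progenitors, 11.6 CPM and a share of 3.04%. Gmnc-/- over wild type in these neurons then had 3 members higher, 1 lower and an E2f7 log2 ratio of −3.79. The G2/M over low range counts were 2 in Gmnc-/- and 1 in the wild type, replication targets lower in neurons 0, Geminin family genes lower in cycling progenitors 2, E2f7 in cycling wild-type progenitors 22.9 CPM and its log2 ratio there −0.11.

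With only wild-type cells that had a tdTomato UMI, members called lower were 1 in Cajal-Retzius-like neurons and 0 in cycling progenitors, members higher in choroid plexus-like cells 0, the E2f7 log2 ratio −4.09 in intermediate progenitor-like cells and −0.14 in cycling progenitors, replication targets lower in neurons 3 and Geminin family genes lower in cycling progenitors 2. With no minimum count, 4 Geminin family genes were called lower in cycling progenitors. Without wild-type library 2, and without shared barcodes, 1 was called higher (0 to 1 over the libraries left out). Without shared barcodes the wild type had 1 member higher in the G2/M over low range and 18.8 CPM of E2f7 in cycling progenitors. With only clusters of at least 20 cells of each genotype, neurons excepted, an alternative chosen after the data were seen like that without shared barcodes, 0 members were lower in the wild-type choroid plexus, where E2f7 had 56.3 CPM and a log2 ratio of Gmnc-/- to wild type of −1.83. The causes of these shifts were not tested. TMM and median-ratio scaling moved the ratios of all genes in Cajal-Retzius-like neurons by 0.14 and 0.17 on the log2 scale. No paired analysis was possible because the groups share fewer than 2 replicate numbers. Levels under about 3 UMIs per class could not be told from 0.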

Other observations

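Cell cycle inhibitors other than Cdkn1a also differed in Cajal-Retzius-like neurons. Cdkn1b, which encodes p27, was called higher in the knockout (5.56% of genes), with 145 CPM in Gmnc-/- against 65.9 and 66.9 CPM in the wild type. Cdkn2c, which encodes p18, was called lower (11.0% of genes), with 0.361 CPM in Gmnc-/- against 5.45 and 4.93 CPM in the wild type. The knockout level lay at the floor of 3 UMIs. With all neurons as a single class, neither Cdkn1b nor Cdkn2c was called.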
